A study of Homo sapiens with 6 samples.

Results

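Total RNA of Hep G2 cells transfected with a dsRNA mimicking *miR-195* was compared with total RNA of untransfected (NT) cells, 2 of the 6 libraries of the series. Hep G2 is a human cell line derived from a liver tumor. The *miR-195* library came from cells that received 5 nM of the mimic with a lipid reagent and were collected after 24 h. The NT library came from cells that received neither mimic nor reagent, and its label gives a time of 0 h. No mock transfection and no control dsRNA is among these libraries, so the mimic, the lipid, the dsRNA itself and the time in culture cannot be told apart. There was 1 library on each side, so no spread between cultures was measured, no test was possible and every change below is a difference between 2 libraries. Another total RNA library, from cells given 5 nM of a *miR-497* mimic for 24 h, is set beside them for single genes; any ratio of it uses the same NT library and is not a second measurement.

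The authors mapped the reads to the human genome and gave 1 RPKM value per gene and library, a read number scaled to gene length and to the mapped reads of the library. Of 21863 gene symbols, 14740 had an RPKM above 0 in both libraries, and 11168 of these reached an RPKM of 1 in at least one of them; ratios below refer to these 11168 genes. Of these, 124 genes passed the limit through the NT library alone and 292 through the *miR-195* library alone, which favours a difference in that direction. The change of a gene is the log2 ratio of its RPKM with *miR-195* to its RPKM without transfection, with no pseudocount. "Raised" and "lowered" mean a change of at least 2-fold. The steps between RPKM values gave about 24700000 mapped reads for the NT library and 29300000 for the *miR-195* library. From the same steps the reads behind 10953 of the 11168 genes were inferred, and the 95% counting interval given with a gene rests on them. It covers counting error only, since it holds no variation between cultures and treats PCR copies as separate molecules.

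A miRNA guides Argonaute proteins to mRNAs mainly through its seed, bases 2 to 8 from its 5′ end, which pair with a matching sequence in the 3′UTR and lead to shortening of the poly-A tail, decay of the mRNA and reduced translation. *miR-195* and *miR-497* are made from one precursor transcript and belong to the *miR-15/16* family. The family is known for acting on cyclins, cyclin-dependent kinases and other drivers of the passage from G1 to S phase.

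The 2 mature miRNAs are shown because their shared seed (capitals) defines the sites searched below. They are RefSeq sequences placed on GRCh38.p14, on the minus strand at chr17:7017667-7017687 for *miR-195* and chr17:7017979-7017999 for *miR-497*. The exact strands of the commercial mimics were not given in the sources used here.
hsa-miR-195-5p: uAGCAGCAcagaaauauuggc
hsa-miR-497-5p: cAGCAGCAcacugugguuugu
Among 2370 human mature miRNA names in that table, 7 had the same bases 2 to 8, the other 5 being *miR-15a*, *miR-15b*, *miR-16*, *miR-424* and *miR-6838*.

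The match to the seed in an mRNA is TGCTGCT, searched on the transcript strand of the longest annotated 3′UTR of each gene (GENCODE 44 on GRCh37). With an A after it, it is called an 8mer site and otherwise a 7mer-m8 site. GCTGCT followed by A without the T in front is a 7mer-A1 site, and GCTGCT alone a 6mer site. Each gene was put in 1 class by its best site. The following 3′UTR stretches of 30 bases on GRCh37 come from genes the results turn on, with the site in capitals; the last pair belong to genes that were not lowered.
ARL2, last match, chr11:64789576-64789605, plus strand: gggaggagctgctacTGCTGCTAccgaggc
CCNE1, first match, chr19:30314916-30314945, plus strand: agtgcgtgctcccgaTGCTGCTAtggaagg
CCNE1, second match, chr19:30315154-30315183, plus strand: gaactgttttgtaagTGCTGCTAtatctat
CDC25A, second match, chr3:48199747-48199776, minus strand: ctgtggtactggggcTGCTGCTAtttaagc
CDCA4, first match, chr14:105477059-105477088, minus strand: tctataaacatccttTGCTGCTAcattaga
WEE1, second match, chr11:9610678-9610707, plus strand: attgccttgtgaattTGCTGCTAttttagt
UNC5B, only match, chr10:73059854-73059883, plus strand: gaacagagagtacttTGCTGCTAacgaatc
CCND3, only match, chr6:41903050-41903079, minus strand: tgtgattgacagcttTGCTGCTgaaggctc
PIK3R3, only match, chr1:46506296-46506325, minus strand: ttctaaggtggtctcTGCTGCTAtttaaca
CCND1, only match, chr11:69468068-69468097, plus strand: ctctttcacattgttTGCTGCTAttggagg
*ARL2* holds 4 matches within a 3′UTR of 329 bases, the first 2 of them overlapping, and both matches of *CCNE1* lie within 535 bases.

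The cells carried most mRNAs of their label in both libraries. Of 24 hepatocyte secreted proteins listed, 22 passed the limit for a ratio and 1 was at 0 in both libraries. The secreted protein *TTR* was scarce, at an RPKM of 1.52 without transfection and 4.81 with *miR-195*. *AFP*, the fetal liver albumin, stood at an RPKM of 4884 without transfection and 4477 with *miR-195*, and *ALB*, the serum albumin of hepatocytes, at 61.4 and 53.9. Of 22 markers of fibroblasts, endothelium and blood cells, 7 were at 0 in both libraries, among them *PTPRC*, *CD3E*, *HBB* and *DCN*, and 3 passed the limit for a ratio, *LYZ*, *CD68* and *PDGFRB*. *LYZ*, lysozyme, made up nearly all of the list at RPKM 749 and 973, and without it the summed RPKM of the markers was 14.4 and 18.1.

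Most genes had a ratio near 1, and a small share moved 2-fold. The median log2 ratio was -0.0025, and the middle 95% of genes lay between -0.85 and 0.91. Lowered genes numbered 141 of 11168 (1.26%) and raised genes 217 (1.94%), and 13 and 18 of them changed at least 4-fold. Counting error gave a single gene a median standard error of 0.066 on the log2 scale.

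The limit on RPKM shaped both sets, since 110 of the 217 raised and 35 of the 141 lowered genes reached it in one library only. With an RPKM of 1 required in both libraries, 107 genes were raised and 106 lowered. Raised genes had a median RPKM of 0.970 without transfection and 2.86 with *miR-195*, a low start that the limit in part selects for, and 150 of the 217 lay in the lowest of 5 equal groups by mean RPKM. Lowered genes had medians of 7.39 and 3.19, and 51 of the 141 lay in that group. Among the 3783 genes that reached an RPKM of 20 in one library, 37 were lowered and 18 raised. Fewer than 10 reads in a library lay behind 36 raised and 23 lowered genes. Where the interval itself had to lie wholly past 2-fold, 50 genes (0.456% of 10953) were lowered and 60 (0.548%) raised. Protein-coding genes made up 112 of the 141 lowered and 175 of the 217 raised genes, against 94.4% of all 11168 genes. On each side 21 were snoRNA or miRNA genes. The share of such genes among all 11168 is not given here, so these counts say nothing about the class. At the edge of the limit, *UBE2C* (-1.0006) counted as lowered and *ASNSD1* (-0.997) did not, while *TNFRSF14* (1.0015) counted as raised and *HOMEZ* (0.9998) did not.

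The share of raised genes depended on scaling. They were 60.6% of the 2-fold changes on RPKM as deposited and 76.5% when each library was divided by its upper quartile, which adds 0.11 to every log2 ratio.

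**Figure D1:**
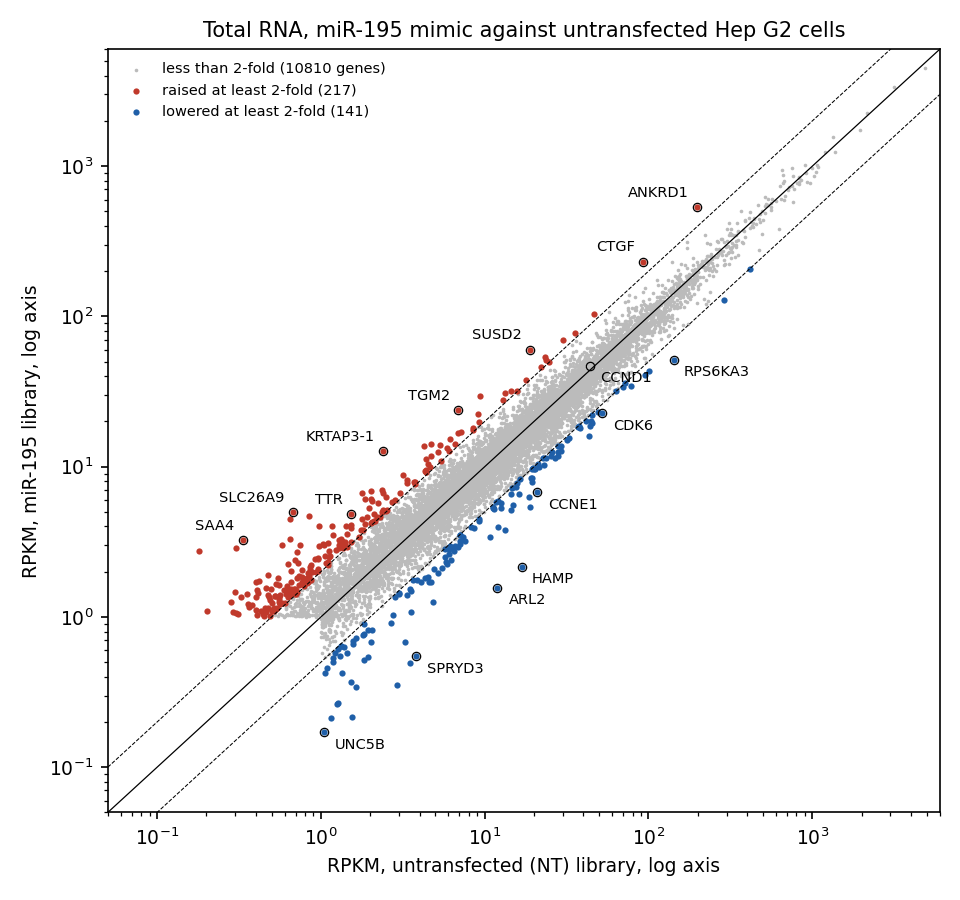
RPKM of the 11168 genes in the NT library (x axis) and in the *miR-195* library (y axis), both axes logarithmic, 1 point per gene, with solid line for equal values and dashed lines for 2-fold. The 217 raised genes (red) crowd at low RPKM, while lowered genes (blue) include *RPS6KA3* at RPKM 142 without transfection and *ARL2* far under the lower dashed line.

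The mRNA encoding *ARL2*, a small GTPase that acts in tubulin folding and mitochondria, stood at RPKM 11.8, 1.57 and 4.45 in the NT, *miR-195* and *miR-497* libraries. It was 7.53-fold lower with *miR-195*, a log2 ratio of -2.91 (counting interval -3.52 to -2.31). *CCNE1*, cyclin E1, the partner of CDK2 at the entry to S phase, stood at 21.0, 6.76 and 10.2 in the same order, with a log2 ratio of -1.63 (-1.80 to -1.47). *CDK6*, the kinase that cyclin D proteins activate in G1, stood at 52.3, 22.7 and 25.9, with a log2 ratio of -1.21 (-1.25 to -1.17). In all 3 genes both mimic libraries lay under the NT library, and the *miR-195* library was the lowest.

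The genes with the lowest ratios, ranked by the end of the interval nearest to 0, were led by *HAMP*, the liver hormone hepcidin that limits the export of iron. It stood at RPKM 16.8, 2.16 and 7.35 in the NT, *miR-195* and *miR-497* libraries, a log2 ratio of -2.96 (-3.54 to -2.37) on 177 and 27 reads. None of the 4 site kinds was present in its 3′UTR. *SPRYD3*, a little-studied SPRY domain protein, followed with 3.82 and 0.546 (-2.81, -3.26 to -2.35) and 3 matches in its 3′UTR, and then *ARL2*. *UNC5B*, a netrin receptor, went from 1.052 to 0.170 (-2.62, -3.24 to -2.01). These 4 genes were between 0.504 and 7.35 in the *miR-497* library, in each case between the other values. *SPRYD3* and *UNC5B* passed the limit on RPKM through the NT library only, which favours a decrease. With a pseudocount of 1 RPKM their log2 ratios were -1.64 and -0.81.

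The rest of the 10 lowest by this rank held further regulators and signalling genes. *CDCA4*, a nuclear protein tied to E2F activity, stood at RPKM 13.3 without transfection and 3.81 with *miR-195*, a log2 ratio of -1.81 (-2.01 to -1.61). *IHH*, a secreted hedgehog ligand, went from 1.15 to 0.214 on 59 and 13 reads, so that its interval was wide (-3.29 to -1.56). *MTMR11*, a phosphatase relative, went from 1.53 to 0.370. *IHH* and *MTMR11* also passed the limit on RPKM through the NT library only. With a pseudocount of 1 RPKM their log2 ratios were -0.83 and -0.88. *CKM*, the creatine kinase known from muscle, went from 4.86 to 1.26 and had TGCTGCT in its coding sequence but no site in the 3′UTR. *HSPA1B*, an inducible HSP70 chaperone, went from 19.0 to 5.36, a value that is uncertain because its near-identical copy *HSPA1A* can share its reads. The last of the 10 was *CCNE1*.

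Among abundant genes (RPKM 20 or more in one library), *CCNE1* was again the first by this rank. *RPS6KA3*, the growth factor-activated kinase RSK2, came next at RPKM 142, 51.6 and 68.4 in the NT, *miR-195* and *miR-497* libraries. Its log2 ratio of -1.47 (-1.497 to -1.43) rested on 27173 and 11667 reads, and its 3′UTR held 3 matches that start at bases 120, 132 and 135 of 5487, the last 2 overlapping. *ANLN*, anillin, a scaffold of the cleavage furrow, stood at 43.2, 16.02 and 21.9 and had a 7mer-A1 site. *RARS*, the arginyl-tRNA synthetase, stood at 95.7, 40.5 and 70.1 (log2 ratio -1.24) and carried TGCTGCT in its coding sequence only. *CDK6* was the last of these 5.

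The 10 genes with an 8mer site that ranked lowest were *ARL2*, *UNC5B*, *CDCA4*, *IHH*, *CCNE1*, *CDC25A*, *SLC11A2*, *LSM11*, *WEE1* and *RFK*. *CDC25A*, the phosphatase that activates CDK2, went from RPKM 18.6 to 6.31 (-1.56, -1.69 to -1.43). *SLC11A2*, the iron transporter DMT1, went from 14.5 to 5.11 (-1.51) and had 8mer sites starting at bases 229 and 2172 of its 3′UTR of 2333 bases. *LSM11*, a subunit of the U7 particle that trims histone mRNAs, went from 4.67 to 1.72 (-1.44). *WEE1*, the kinase that holds CDK1 inactive, went from 14.8 to 5.60 (-1.40), and *RFK*, riboflavin kinase, from 16.2 to 6.62 (-1.29). All 10 had intervals wholly past 2-fold, which the ranking favours.

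The 10 genes with the highest ratios by the same rank included 6 that were under an RPKM of 1 without transfection and passed the limit through the *miR-195* library, *SLC26A9*, *SDPR*, *SAA4*, *SEMA3C*, *CPT1B* and *LOXL4*. *SLC26A9*, an epithelial anion transporter, stood at RPKM 0.674, 4.99 and 3.67 in the 3 libraries in the same order, a log2 ratio of 2.89 (2.56 to 3.22). *SDPR*, a caveola protein, went from 0.647 to 4.48 (2.79), and *SAA4*, the constitutive serum amyloid A, from 0.334 to 3.23 on 5 and 57.4 reads (interval 1.955 to 4.59; a part read comes from overlap with another gene). *KRTAP3-1*, a hair keratin-associated protein, went from 2.39 to 12.7 (2.41), *SEMA3C*, a secreted semaphorin, from 0.742 to 2.99 (2.01), and *LOXL4*, a matrix cross-linking oxidase, from 0.420 to 1.73 (2.04). *CPT1B*, the muscle form of carnitine palmitoyltransferase, went from 0.299 to 1.46 (2.28) with a 7mer-m8 site.

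*PIK3R3*, a regulatory subunit of PI3 kinase, was raised although its 3′UTR held the 8mer site printed above. Its RPKM was 1.79 in the NT, 6.71 in the *miR-195* and 4.83 in the *miR-497* library, a log2 ratio of 1.90 (1.71 to 2.10). In total 6 of the 551 genes with an 8mer site were raised.

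Among abundant genes the leading raised ones were *TGM2*, *SUSD2*, *ANXA3*, *ANKRD1* and *CTGF*, none with a 7- or 8-base site in the 3′UTR. *TGM2* and *SUSD2* carried TGCTGCT in the coding sequence, and the others did not. *TGM2*, a tissue transglutaminase, stood at 6.87, 23.7 and 17.1 in the NT, *miR-195* and *miR-497* libraries, and *SUSD2*, a membrane protein, at 18.9, 60.2 and 45.5. *ANXA3*, an annexin, stood at 9.42, 29.4 and 16.8. *ANKRD1*, an ankyrin repeat protein known as a target of the YAP coactivator, stood at 197, 535 and 255, with a log2 ratio of 1.44 (1.41 to 1.47). *CTGF*, a secreted matricellular protein also known as a YAP target, stood at 92.6, 232 and 135 (1.32, 1.28 to 1.37). In each of these 5 genes the *miR-497* library lay between the other values. In RPKM it lay nearer to the NT library for *ANXA3*, *ANKRD1* and *CTGF*, and nearer to the *miR-195* library for *TGM2* and *SUSD2*.

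**Figure D2:**
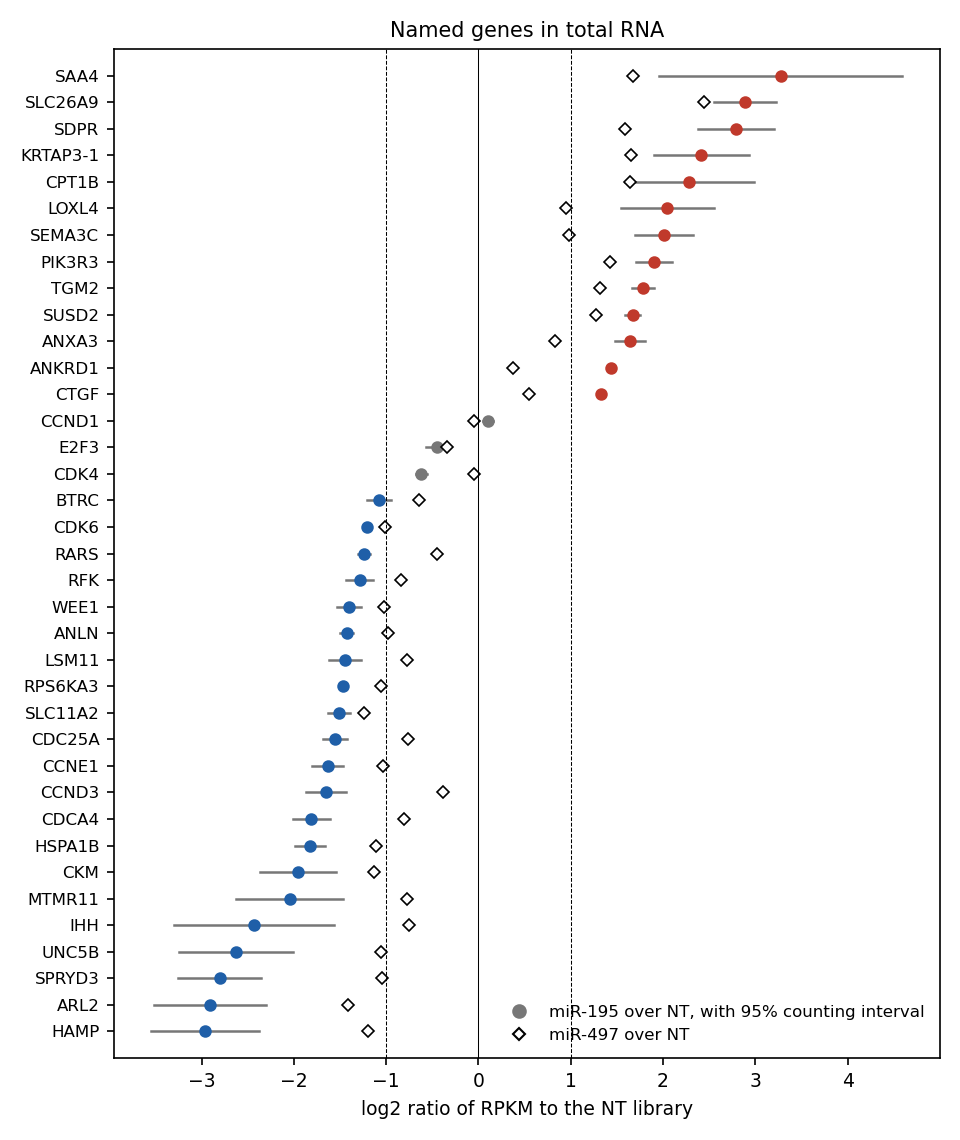
Log2 ratio of RPKM to the NT library (x axis) for the genes with the lowest and highest ratios and the G1/S regulators, 1 row per gene, with *miR-195* as filled circles with 95% counting intervals and *miR-497* as open diamonds; dashed lines mark 2-fold. *HAMP*, *ARL2* and *SPRYD3* lie near -3, *CCND1* lies at 0.10, and *SAA4* has the widest interval (1.955 to 4.59).

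Genes with a seed match in the 3′UTR stood lower than genes without one, and the shift was larger for longer matches. The median log2 ratio was -0.17 for the 551 genes with an 8mer site, -0.07 for 2261 genes with a 7mer-m8 site and -0.11 for 413 genes with a 7mer-A1 site. It was 0.030 for 1815 genes with a 6mer site and 0.029 for 5502 genes without any, so the 6mer class lay with the genes without a site. Ratios under 0 were found for 70.6% of the genes with an 8mer site and 45.9% of those without a site. These differences of medians were small beside the spread of single genes, whose middle 95% has been given above.

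Large decreases were also more frequent with a site. Of all 10542 genes with an annotated 3′UTR, 112 (1.06%) were lowered and 174 (1.65%) raised. The share lowered was 5.44% with an 8mer site, 3.15% with a 7mer-A1 site, 1.28% with a 7mer-m8 site, 0.386% with a 6mer site and 0.600% without a site. The share raised was 1.09% with an 8mer, 0.973% with a 7mer-m8, 0.484% with a 7mer-A1 and 1.60% with a 6mer site, and 2.09% without any. Of the 112 lowered genes, 59 (52.7%) had an 8mer or 7mer-m8 site, against 26.7% of all genes with a 3′UTR and 16.1% of the raised genes. Among the 50 genes lowered with an interval wholly past 2-fold, 33 had such a site and 9 had none of the 4 kinds.

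More matches went with a lower median. It was 0.024 for the 7730 genes without TGCTGCT, -0.07 for 1936 genes with 1 match, -0.13 for 607 genes with 2, -0.14 for 174 genes with 3 and -0.18 for 95 genes with 4 or more. Of the 95 genes 5 (5.26%) were lowered, against 1.06% of all genes with a 3′UTR. None was raised, against 1.65%, a share at which few of 95 genes would be raised, so this absence says little. TGCTGCT in the coding sequence of a gene without any 3′UTR site was not accompanied by such a shift. The median was 0.030 for 1656 such genes, 0.030 for 3698 genes without TGCTGCT anywhere and 0.020 for 212 genes with it in the 5′UTR.

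**Figure D3:**
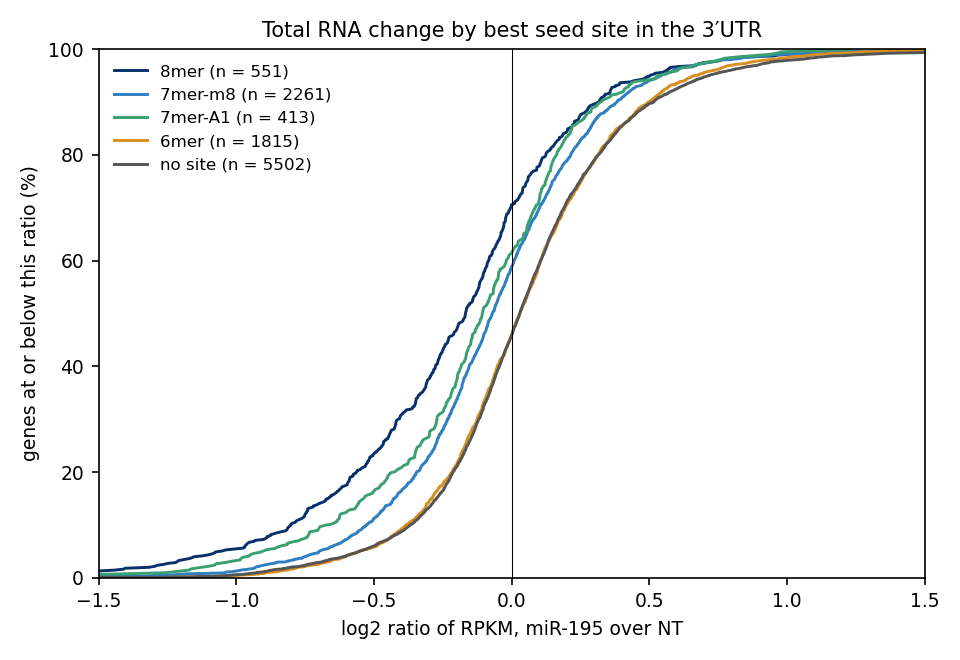
Share of genes (y axis, percent) at or below each log2 ratio of *miR-195* to NT (x axis), 1 line per class of best 3′UTR site with the number of genes. The lines for 8mer, 7mer-A1 and 7mer-m8 sites run left of the line for no site, on which the 6mer line lies.

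The A+U content of the 3′UTR moved with the ratio as well. Genes were put in 5 equal groups by it. In genes without TGCTGCT the median fell from 0.18 in the group poorest in A and U (22.4% to 46.0%) to -0.09 in the richest (65.3% to 92%). In genes with TGCTGCT it fell from 0.052 to -0.21 over the same groups. In each group the genes with the match stood under those without it. By 3′UTR length the difference was widest in the shortest of 5 groups, up to 512 bases, where the medians were -0.17 with and 0.063 without the match. In the longest group, above 3357 bases, they were -0.07 and -0.0025. What the relation with A+U content stems from was not tested.

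**Figure D4:**
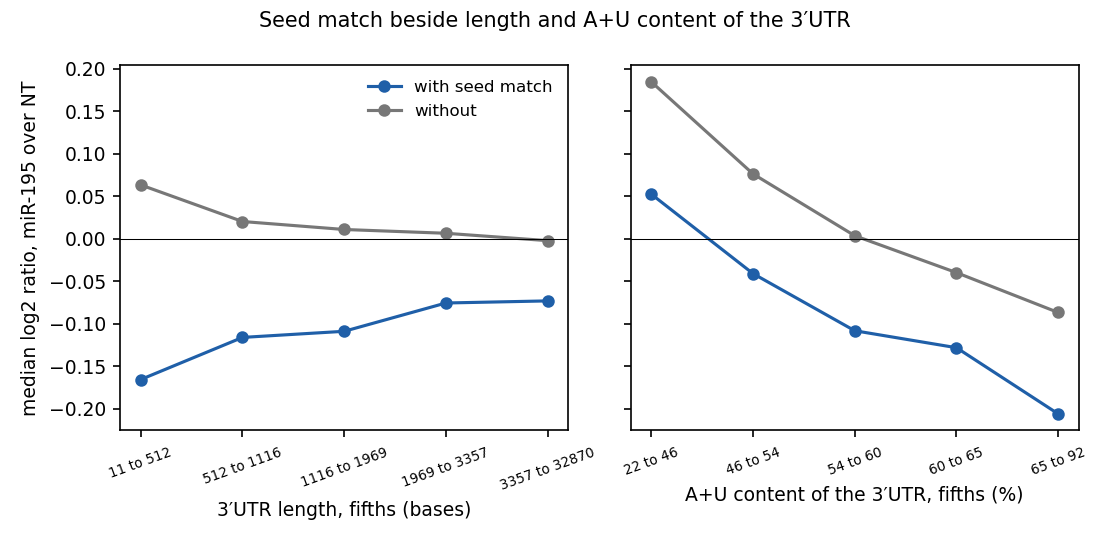
Median log2 ratio of *miR-195* to NT (y axis) in 5 equal groups by 3′UTR length in bases (left) and by A+U content in percent (right), for genes with TGCTGCT in the 3′UTR (blue) and without it (gray), lines joining the groups. The blue points lie under the gray ones in every group, and both lines fall with A+U content.

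Regulators of the step from G1 to S phase had the lowest median of the 19 lists. This list held the 8 genes the study followed up, which were chosen in part on these libraries and are not independent of them. The median log2 ratio was -1.14, and 5 of 8 genes were lowered, against 1.26% of all genes. *CCND3*, cyclin D3, stood at RPKM 10.7 (NT), 3.42 (*miR-195*) and 8.22 (*miR-497*), the lowest ratio of the list (-1.65, -1.87 to -1.44). *CDC25A*, *CCNE1* and *CDK6* have been given above. *BTRC*, the F-box protein that marks substrates such as beta-catenin for destruction, stood at 9.23, 4.37 and 5.90 (-1.08).

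The other 3 of the 8 genes did not reach 2-fold. *CDK4*, the second cyclin D-dependent kinase, stood at 133, 86.9 and 129 in the NT, *miR-195* and *miR-497* libraries (-0.62, -0.68 to -0.56). *E2F3*, a transcription factor of S-phase genes, stood at 9.35, 6.87 and 7.41 (-0.45). *CCND1*, cyclin D1, stood at 43.8, 47.0 and 42.3 (0.10, 0.05 to 0.16), the only positive ratio of the list, in spite of its 8mer site.

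Other genes known as targets of the *miR-15/16* family were shifted less. Like the other lists, this one was chosen with earlier results of these data known and is not independent of them. Of 49 genes listed, 43 had a ratio, with a median of -0.35, and 37 ratios were under 0, against 50.3% of all genes. Lowered were 5 of the 43, against 1.26% of all genes: *ARL2*, *ANLN*, *WEE1*, *RARS* and *PURA*. The last, a nucleic acid-binding protein, went from 5.82 to 2.32. The checkpoint kinase *CHEK1* went from 22.9 to 11.8 (-0.96). None was raised. *CCND2*, cyclin D2, stood highest (0.75 to 1.19, log2 ratio 0.67) despite an 8mer site, followed by *MCL1*, an inhibitor of apoptosis, which went from 95.5 to 119 (0.31). *CCND2* passed the limit through the *miR-195* library only, which favours a rise. *BCL2*, the family's best known target in lymphoid cells, was nearly silent, at RPKM 0.0366 and 0.0309.

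All genes of DNA replication that were measured had a ratio under 0. The list of 51 genes driven by E2F factors or used in S phase had a median of -0.70 and a range from -1.26 to -0.23, and each of the 51 counting intervals lay under 0. A 2-fold decrease was found for 2 of them, against 1.26% of all genes, *E2F7*, a repressive E2F factor, which went from 3.56 to 1.49, and *DTL*, a ubiquitin ligase subunit, from 16.5 to 8.22. The ratio of *DTL* was -1.002 (-1.11 to -0.89), and 1 of the 51 genes was lowered under upper-quartile scaling. The sliding clamp *PCNA* went from 471 to 279, the helicase subunit *MCM3* from 162 to 88.0 and cyclin A2 (*CCNA2*) from 105 to 55.9. *RPA2*, a single-strand binding subunit, changed the least, from 13.7 to 11.7. TGCTGCT was present in the 3′UTR of 7 of the 51 genes, against 26.7% of all genes with a 3′UTR.

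Genes of mitosis stood lower still. All 41 with a ratio were under 0, with a median of -0.83 and a range from -1.23 to -0.17, and 10 were lowered, against 1.26% of all genes. Of these 10, 2 had an interval wholly past 2-fold, and 2 were lowered under upper-quartile scaling. *SPC24*, a kinetochore subunit, went from 6.86 to 2.92 (-1.23), and *CDK1*, the kinase that drives entry into mitosis, from 78.3 to 34.2 (-1.20, -1.27 to -1.12). The other 8 were *NUSAP1*, *BIRC5*, *SPC25*, *NUF2*, *TTK*, *AURKB*, *PBK* and *UBE2C*, with ratios between -1.09 and -1.0006. *AURKA* (70.0 to 50.8) and *ECT2*, a cytokinesis factor (48.3 to 42.8), changed the least. TGCTGCT was present in the 3′UTR of 2 of the 41 genes, against 26.7% of all genes with a 3′UTR. The median A+U content of the 3′UTRs of the 41 genes was 64.0%, which lies toward the side where genes without a match were lower. The part of base composition in this shift was not tested. In bulk RNA, fewer cells in S phase or mitosis and less of these mRNAs per cell cannot be told apart.

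The brakes of the cell cycle did not move together. Among 10 CDK inhibitors and RB family genes, 7 had a ratio and the median was -0.08, which turned positive (0.030) under upper-quartile scaling. *CDKN2C*, the inhibitor p18, was the 1 gene of 7 that was lowered (6.13 to 2.99), against 1.26% of all genes. *RBL1*, the pocket protein p107, went from 11.9 to 7.06 (-0.75). *CDKN1A*, the inhibitor p21, stood at 25.3 and 32.7 (0.37) and *CDKN2D* at 1.73 and 1.87 on 61 and 78 reads. *RB1*, *RBL2* and *CDKN1B* had ratios of -0.08, -0.08 and -0.30. *CDKN2A* and *CDKN2B* were under an RPKM of 1 in both libraries, and *CDKN1C* was listed at 0 with *miR-195*.

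Genes of cholesterol synthesis and uptake stood higher with *miR-195*. All 24 that had a ratio were above 0, against 49.7% of all genes, with a median of 0.60 and a range from 0.15 to 1.02. All 23 with a counting interval had it above 0. A 2-fold rise was found for 1 of the 24, against 1.94% of all genes. It was *MVD*, a decarboxylase of the mevalonate pathway, at RPKM 24.6 (NT), 49.97 (*miR-195*) and 68.4 (*miR-497*). *EBP* (45.2 and 50.3) and *SREBF2*, the transcription factor of the pathway (23.7 and 26.9), changed the least. The median over the list was 0.52 in the *miR-497* library, measured against the same NT library.

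**Figure D5:**
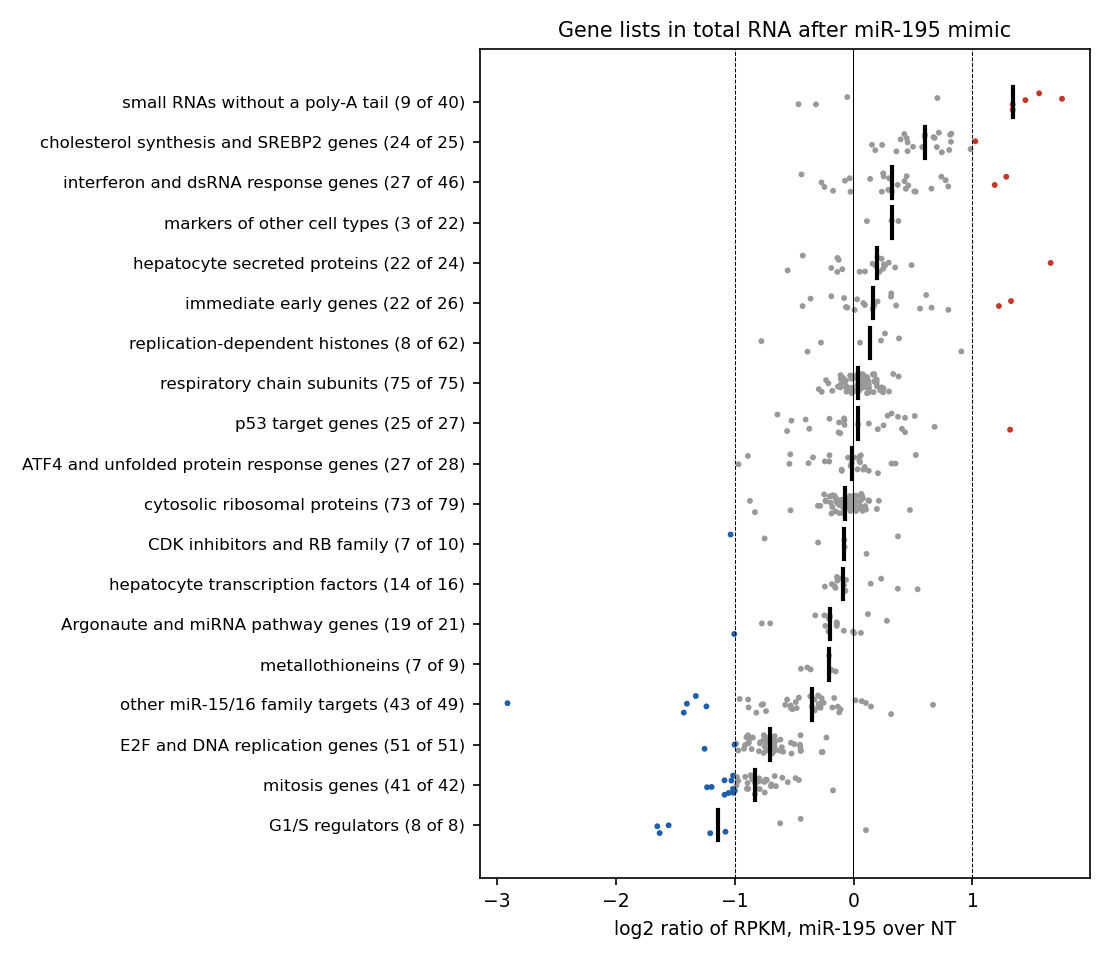
Log2 ratio of *miR-195* to NT (x axis) for each gene with a ratio (points) in 19 gene lists, with the number of genes that had a ratio and the number listed in brackets; thick bars are list medians, the thin line is the median of all genes and dashed lines mark 2-fold, with points past it in color. The replication and mitosis genes lie wholly left of 0 and the cholesterol genes wholly right of it.

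Lists that respond to foreign RNA or to stress showed small shifts. Of 46 interferon and dsRNA response genes, 27 had a ratio, with a median of 0.32 and 20 above 0, against 49.7% of all genes. Raised (2 of 27, against 1.94% of all genes) were *OAS1*, a dsRNA sensor (2.12 to 4.82), and *IFI27*, an interferon-induced membrane protein (0.558 to 1.36 on 9 and 26 reads). *IFI27* passed the limit through the *miR-195* library only, which favours a rise, and its interval was wide (0.19 to 2.38). *IFIT1* (1.39 to 1.03) and *EIF2AK2*, the dsRNA-activated kinase PKR (18.7 to 15.5), stood lowest. *IFNB1* was at 0 in both libraries. The median of this list in the *miR-497* library was 0.37.

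Of 27 ATF4 and unfolded protein response genes with a ratio, none was raised or lowered, against 1.94% and 1.26% of all genes. The median of this list was -0.02 (0.090 under upper-quartile scaling). Within it *PSAT1* and *ASNS*, enzymes of serine and asparagine synthesis, stood at 174 and 88.8 (-0.97) and at 56.3 and 30.4 (-0.89), while *DNAJB9*, a chaperone of the endoplasmic reticulum, stood at 22.3 and 32.0 (0.52). Among 25 genes of the p53 response the median was 0.038, and 1 was raised, against 1.94% of all genes. *TP53INP1*, a p53-induced nuclear protein, was raised from 6.12 to 15.2 (1.32) in spite of a 7mer-m8 site, with 8.38 in the *miR-497* library, and *CCNG1*, cyclin G1, stood lowest at 124 and 79.6 (-0.64).

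Of 22 immediate early genes with a ratio, 2 were raised, *CTGF* and *CYR61*, against 1.94% of all genes, and the median was 0.17. *CYR61*, a relative of *CTGF*, stood at 30.0, 70.0 and 35.9 in the NT, *miR-195* and *miR-497* libraries (1.22, 1.14 to 1.302). *ZFP36*, an mRNA decay factor, and *IER5* stood lowest, at ratios of -0.43 and -0.36.

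Lists of hepatocyte genes had medians of 0.19 (secreted proteins) and -0.09 (transcription factors), although *HAMP* was among the lowest of all genes. Of 22 hepatocyte secreted proteins with a ratio, 15 were above 0, against 49.7% of all genes, and 1 was raised, against 1.94%. That gene was *TTR*, transthyretin, which went from 1.52 to 4.81 (1.66, 1.12 to 2.20). *APOC3* (8.65 to 5.88) and *FGG*, fibrinogen gamma (337 to 250), stood lowest, and *VTN*, vitronectin, went from 20.7 to 29.1. Of 14 hepatocyte transcription factors none changed 2-fold, against 1.94% raised and 1.26% lowered of all genes, with a median of -0.09 that turned to 0.015 under upper-quartile scaling. *CEBPB* and *NR5A2* stood lowest (-0.24 and -0.18) and *FOXA2*, a forkhead factor of liver development, had a ratio of 0.37. All 7 metallothioneins with a ratio lay between -0.44 and -0.15, from *MT1H* (27.1 to 19.9) to *MT1G* (134 to 120). In the *miR-497* library their median was 0.30 against the same NT library. These genes are near-identical copies, and reads may be shared between them.

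The machinery that miRNAs use was shifted slightly downward, with a median of -0.20 over 19 genes. *DCP2*, the enzyme that removes the mRNA cap, was lowered from 15.7 to 7.84 (-1.01, -1.08 to -0.93). It was the 1 lowered gene of the 19, against 1.26% of all genes. *TARBP2*, a partner of Dicer, went from 15.9 to 9.31 (-0.77), with 18.3 in the *miR-497* library. *TNRC6A* and *TNRC6C*, GW182 proteins that bind Argonaute, stood highest at 0.28 and 0.12. *EIF2C2*, which encodes Ago2, stood at 8.89 and 7.11.

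Housekeeping lists lay close to 0. None of 73 cytosolic ribosomal protein genes changed 2-fold, against 1.94% raised and 1.26% lowered of all genes. The median of these genes was -0.07 and turned to 0.038 under upper-quartile scaling. Their ratios ran from -0.87 for *RPL14* (223 to 122) to 0.47 for *RPS26* (5.04 to 6.996), and pseudogenes may share reads with both. The 75 respiratory chain subunits had a median of 0.038 and a range from -0.29 (*COX5A*) to 0.38 (*NDUFB2*).

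RNAs without a poly-A tail were few and scarce. Of 62 replication-dependent histone genes, 8 had a ratio, and no counting interval excluded 0. None of the 8 changed 2-fold, against 1.94% raised and 1.26% lowered of all genes. Of 40 other small RNAs listed, 9 had a ratio and 5 of these were raised, against 1.94% of all genes. *RMRP*, the RNA of RNase MRP, stood at RPKM 1.961 (NT), 5.34 (*miR-195*) and 34.0 (*miR-497*), and *RPPH1*, the RNA of RNase P, at 2.49, 6.30 and 34.0. The other 3, *VTRNA1-2*, *SNORD15B* and *SCARNA6*, rested on few reads, and their intervals included 0. *VTRNA1-2* and *SNORD15B* stood at RPKM 0.459 and 0.554 in the NT library and passed the limit through the *miR-195* library only, which favours a rise. Whether the libraries differed in poly-A selection was not given in the sources used here, and its part in these values was not tested.

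At an RPKM of at least 1 in one library, 16 genes were listed at 0 in the other and have no ratio, 9 at 0 in the NT library and 7 at 0 with *miR-195*. The highest with *miR-195* were *SNORD55*, *MIR631* and *SNORD66*, at RPKM 2.76, 2.27 and 2.24 on 6, 5 and 5 reads. The highest in the NT library were *MIR4321* (3.11), *MEF2B* (2.55) and *MIR423* (2.13). *MEF2B*, a transcription factor, had 91.1 reads in the NT library and 0 with *miR-195*, *MIR423* had 2 and 0, and no reads were inferred for *MIR4321*. For *MEF2B* the *miR-497* library gave an RPKM of 1.01.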

How the data were processed

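Total RNA libraries of Hep G2 cells were compared, 1 with *miR-195* mimic and 1 without transfection, with the *miR-497* library set beside them. Libraries were prepared by the authors with or without poly-A selection, not assigned to libraries in the sources used here, and read as single 36-base reads. Per the labels, hg19 and CASAVA 1.7 were used. The authors deposited RPKM values for 21891 lines. For 28 symbols with several lines the mean was taken, without a counting interval. The annotation the authors used is not given in the sources used here. All columns were matched to samples (0 left over).

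The log2 ratio of RPKM was taken without pseudocount for genes above 0 in both libraries and at an RPKM of at least 1 in one. Reads were inferred as the multiples of 1 read's RPKM that fit whole numbers in all libraries within a relative tolerance of 2e-05. In genes that overlap others they are multiples of 1/36 read. The implied gene length lay within 1.5-fold of the canonical transcript for 96.9% of 10496 genes. Intervals are normal on the log scale (95%). Genes were matched to GENCODE 44 on GRCh37 by symbol or a unique older symbol (20501, of these 2293 by an older one), and 10542 genes with a ratio had a 3′UTR. List genes were found by symbol or RefSeq synonym, and those not found were left out.

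Genes were named by rule: *CCNE1*, *CDK6* and *ARL2*; the 10 highest and 10 lowest by the interval bound nearest 0; 5 each at RPKM of at least 20; the 10 lowest with an 8mer site; the 2 highest and 2 lowest of each list, and all of lists with at most 10 genes; and the 3 highest RPKM at 0 in one library. Any other gene was picked with its values in view, and some genes and sequences are not reported here. The members and lists were chosen with earlier results of these data known. No test was run, since each condition had 1 library. The steps were tested on simulated data. Pseudocounts, minimum levels, scalings, fold limits and site definitions were varied. Python 3.11.15, numpy 2.4.6, pandas 2.3.3 and matplotlib 3.10.9 were used.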

Additional observations from a re-analysis of the deposited data

Results flagged for a closer look

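The Ago2-IP libraries, RNA pulled down with an antibody to the Argonaute protein Ago2, are outside the total RNA comparison. A gene chosen for being raised in total RNA can be higher in Ago2-IP through its abundance alone, and the ratios below were not set against the change in total RNA. The genes raised in total RNA had a median log2 ratio of 1.58 between the *miR-195* and NT Ago2-IP libraries (207 genes above 0 in both), and 152 of them (73.4%) were at least 2-fold higher there, against 22.6% and a median of 0.51 over 11135 genes. The genes lowered in total RNA had a median of 0.087 (139 genes), and 27 of them (19.4%) were at least 2-fold higher in Ago2-IP. The lowered genes with an 8mer or 7mer-m8 site had a median of 0.29 (59 genes) and those with no site one of -0.39 (32 genes). There was 1 library per condition, so these differences were not tested.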

How the results depend on the processing

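No paired analysis was possible because each condition had 1 library, and for the same reason no replicate could be left out. The number of raised and lowered genes (217 and 141) rested on the limits set. It was 62 and 60 with a pseudocount of 1 RPKM, 857 and 471 without a minimum RPKM, 47 and 75 at a mean RPKM of at least 5, 785 and 725 at a limit of 1.5-fold, and 60 and 50 when the interval had to lie wholly past 2-fold. It was 107 and 106 with an RPKM of 1 required in both libraries, and 300 and 92 under upper-quartile scaling.

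The share of lowered genes with a pseudocount of 1 RPKM was 2.72% for 8mer, 0.619% for 7mer-m8, 1.69% for 7mer-A1 and 0.165% for 6mer sites. At that setting 60 of all 11168 genes were lowered. Without a minimum RPKM the share was 6.63% for 8mer, 2.77% for 7mer-m8, 5% for 7mer-A1 and 2.63% for 6mer sites, and 471 of all 14740 genes were lowered. The share for genes without a site at these settings is not given here, so whether each class still exceeded it is not shown. The median of the 8mer class minus that of genes without a site was -0.20, and -0.17 after each gene was set against the median of genes alike in A+U content and 3′UTR length. Under upper-quartile scaling, an alternative added for the lists after the data were seen, 4 list medians turned positive: CDK inhibitors and RB family (0.030), ATF4 and unfolded protein response (0.090), hepatocyte transcription factors (0.015) and ribosomal proteins (0.038). The median of interferon genes was 0.43 without a minimum RPKM, and that of small RNAs was 0.33 there and 0.56 with a pseudocount of 1 RPKM. Of the 48 named genes past 2-fold, 15 were under it with a pseudocount of 1 RPKM. Under upper-quartile scaling *RB1* and *RBL2* changed sign, and 23 of 27 named lowered genes were still lowered. In the lists, 4 of 8 G1/S regulators, 2 of 41 mitosis genes, 1 of 51 replication genes and none of the CDK inhibitors or Argonaute pathway genes were then lowered.

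Depth limits scarce genes most: 127 of the 11168 genes had fewer than 10 reads in a library. Without replicate cultures, no difference between these libraries can be set against biological variation.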

Other observations

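*FGFR4*, the liver receptor of the hormone FGF19, was chosen after its values were seen. It stood at RPKM 45.1 in the NT library and 19.4 in the *miR-195* library, a log2 ratio of -1.21 (counting interval -1.30 to -1.13), and at 46.4 in the *miR-497* library, which is close to the NT value. Its 3′UTR of 468 bases held 2 matches to the seed that both miRNAs share. *PHF19*, a Polycomb-associated protein with 4 matches, was also chosen after its values were seen and stood at 11.99, 3.98 and 8.22 in the same order.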
